A study of Mus musculus with 6 samples.

Results

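The Bcl-2 family genes that set cell survival were read out across states of regulatory T (Treg) cells: Bcl2, Bcl2l1, Mcl1, Bcl2a1b, Bcl2a1d, Bcl2l11, Pmaip1 and Bax. They were chosen by name, as 8 of the 14098 genes in a table of unique molecular identifier (UMI) counts, and all 8 were present. Bcl2a1b and Bcl2a1d are near-identical copies and were summed, here written Bcl2a1, which leaves 7 members. The cells were EGFP-positive Treg cells of spleen, taken from tamoxifen-treated C57BL/6 mice at 18 to 21 weeks of age and profiled with droplet 3′ chemistry. The labels give 3 cKO samples with Bach2fl/fl Foxp3EGFP-Cre-ERT2 and 3 WT samples with Bach2+/+ Foxp3EGFP-Cre-ERT2. All 6 samples therefore shared the tamoxifen-inducible Cre, driven from the Foxp3 locus together with EGFP, so in the cKO samples the recombination is directed to cells that express Foxp3. The study compared Treg cells without and with Bach2, a transcriptional repressor of lymphocytes.

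Barcode suffixes divided the cells into 6 sets. A set held 1612 to 1871 Treg cells and 3881753 to 4681538 UMIs, and the median Treg cell had 1998 to 2226 UMIs. Because the suffixes matched none of the sample labels, cKO and WT were not compared and no p-value was computed; each value is pooled or printed by set. Levels are in CPM, UMIs of a gene per 1000000 UMIs, and because 3′ libraries count transcript ends no length correction was made. Square-bracket intervals are 95% and cover counting error only. Of 10685 cells, 10514 were kept as Treg cells after 166 cells with B cell, myeloid, CD8 T cell, NK or erythroid transcripts had been left out. In cells thinned to 1000 UMIs, Ikzf2 was seen in 59.7%, Izumo1r in 59.9%, Tnfrsf18 in 40.1%, Cd3d in 72.7% and Cd8a in 0.0196% of 10209 Treg cells, while Foxp3 itself was seen in 2.16%. The sets shared 63 barcodes, and no doublet caller was run.

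Bcl-2 proteins decide whether the outer mitochondrial membrane stays intact. Bcl-2, Bcl-xL (from Bcl2l1), Mcl-1 and A1 (from the Bcl2a1 genes) are guardians that hold the killers in check. The BH3-only proteins Bim (from Bcl2l11) and Noxa (from Pmaip1) bind and block guardians, and Bax is an effector that permeabilises the membrane, releases cytochrome c and so switches on caspases. Treg cells are known to depend on Mcl-1 for survival, Bim limits their number when interleukin 2 is scarce, and A1 is a classical NF-kB target that antigen receptor signals induce.

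The Bcl2a1 copies lie on chromosome 9 of GRCm38, Bcl2a1b at 89199209 to 89207827 on the plus strand and Bcl2a1d at 88723285 to 88731914 on the minus strand. Their longest coding transcripts in GENCODE vM21 are identical at 810 of 817 aligned bases. Within the last 300 bases, from which 3′ reads mostly come, 296 of 298 aligned bases match, so the counts of each copy are uncertain and their sum is the safer measure. Both copies had the same direction wherever their sum was called below, but for the same reason their counts are not independent measures. The stretches directly upstream of the annotated gene starts are shown because they are much alike. Of the 186 bases printed for each, 136 were aligned and 135 of these match, with gaps and unaligned ends not counted. The stretches are offset, and shortly after the capitals Bcl2a1b holds bases that Bcl2a1d lacks. They are from RefSeq, GRCm38.p6, Bcl2a1b from chr9:89199023-89199208 on the plus strand and Bcl2a1d from chr9:88731915-88732100 on the minus strand. Capitals mark a match to TGANTCA, which is TGACTCA, a core bound by AP-1 factors, with its middle base left free. Both matches read TGAATCA, which is not that core.

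Bcl2a1b: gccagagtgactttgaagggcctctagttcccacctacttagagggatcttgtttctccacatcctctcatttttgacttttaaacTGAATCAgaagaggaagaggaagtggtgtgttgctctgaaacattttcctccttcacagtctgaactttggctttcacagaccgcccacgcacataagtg
Bcl2a1d: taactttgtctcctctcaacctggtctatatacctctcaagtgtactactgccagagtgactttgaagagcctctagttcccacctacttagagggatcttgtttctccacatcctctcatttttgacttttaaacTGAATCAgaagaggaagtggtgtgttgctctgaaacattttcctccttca

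The match stands 164 bases before the RefSeq start of Bcl2a1b and 114 bases before that of Bcl2a1d. TGANTCA was found, on either strand, in the 250 bases before the start of 6.75% of 32851 mouse promoters, and the stricter TGACTCA, which is contained in it, in 4.46%. No promoter window of these genes held TGACTCA. Windows were at hand for 7 of the 8 genes (10 windows, as some have several starts). The NF-kB consensus, present in 7.25% of promoters, was matched in 1 of the 3 Bcl2l1 windows, 242 bases before the start, and in neither Bcl2a1 copy. The forkhead motif GTAAACA (3.17% of promoters) was matched in 1 Bcl2l11 window, 227 bases before the start, and the STAT motif TTCNNNGAA (7.02%) in none. A match describes the letters in these windows only.

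Bcl2 was the most abundant member, at 370 CPM [362, 377] over all Treg cells. Bcl2a1 followed at 292 CPM [285.5, 299.0] and Bax at 212 CPM [206, 218]. Mcl1 was lower at 83.6 CPM [80.0, 87.3]. Bcl2l1 (20.4 CPM), Bcl2l11 (10.7 CPM) and Pmaip1 (9.02 CPM) were scarce, with 508, 266 and 224 UMIs in all Treg cells together. None of these overall intervals overlapped with the next except those of Bcl2l11 and Pmaip1.

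In cells thinned to 1000 UMIs, Bcl2 was seen in 27.9% of Treg cells, Bcl2a1 in 20.3%, Bax in 19.3% and Mcl1 in 8.24%. Without thinning the shares were 45.7%, 33.6%, 36.6% and 17.3%. Bcl2l1 was seen in 1.84%, Bcl2l11 in 1.05% and Pmaip1 in 0.891% of thinned cells. Among 105 cells set aside for B cell transcripts (median 2035 UMIs, against 2124 in Treg cells), Bcl2l1 and Pmaip1 were seen in 0 of 105, which by 3 counts allows a share of cells with a UMI of up to 2.86%, and Bcl2l11 in 2 of 105. Shares this low cannot be told apart from free RNA at this depth, so the 3 scarce genes are read below only as summed UMIs. Summed without thinning, the B-marked cells held Bcl2l1 at 18.6 CPM and Bcl2l11 and Pmaip1 both at 9.29 CPM. These are close to the 20.5, 10.7 and 8.95 CPM of the scored Treg cells, so the overall levels of these genes do not stand above those of B-marked cells either. The thinned B-marked cells held Bcl2 in 23.8%, Bcl2a1 in 4.76%, Bax in 16.2% and Cd3d in 28.6%, and Mcl1 in 11 of 105. Summed, they held Bcl2 at 232, Mcl1 at 108, Bcl2a1 at 204 and Bax at 173.5 CPM, and Mcl1 was thus no higher in Treg cells than in B-marked cells. Transcripts of the B-marked cells themselves, doublets and free RNA cannot be told apart here, so these levels do not measure free RNA alone.

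Across the 6 sets, Mcl1 varied least, at 78.6, 84.0, 83.8, 90.0, 81.9 and 84.0 CPM in sets 1 to 6. Bax was almost as even, at 209, 202, 194, 221, 221 and 225 CPM. Bcl2 stood at 401, 419, 418, 321, 307 and 344 CPM, 1.36-fold between its lowest and highest set. The intervals of its lowest set [290, 325] and highest set [399, 440] did not overlap. Bcl2a1 ranged 1.51-fold, at 284, 251, 234, 337, 292 and 355 CPM, highest in set 6. Bcl2l11 ranged 2.07-fold, from 6.96 to 14.4 CPM, with 29 to 59 UMIs a set. Pmaip1 ranged from 6.11 to 12.1 CPM and Bcl2l1 from 13.9 to 25.6 CPM.

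**Figure D1:**
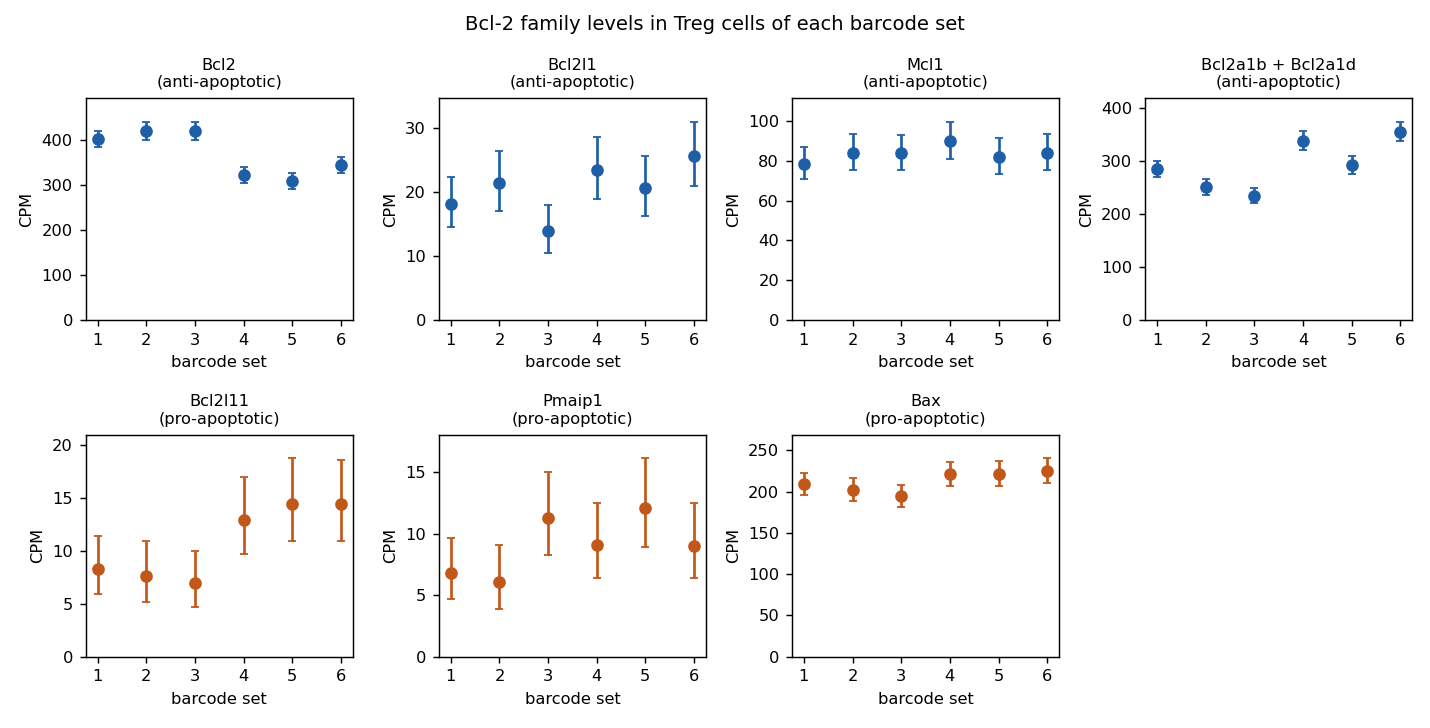
Level of each member (CPM, y axis from 0) in the Treg cells of each of the 6 barcode sets (x axis), with 95% intervals for counting error; blue marks anti-apoptotic and brown pro-apoptotic genes. Mcl1 stays between 78.6 and 90.0 CPM while Bcl2 runs from 307 to 419 CPM.

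Cell states were set by other genes. In each thinned cell the UMIs of a marker list were summed, and cells at or above a threshold that left at most 25% of cells in the group were called high, while cells at or below the median were called low. The 10 lists, none with a Bcl-2 family gene, marked resting cells (such as Ccr7, Lef1, Klf2), effector cells (such as S100a4, Lgals1, Crip1), Ccl5, the T cell receptor (TCR) response (such as Nr4a1, Egr2, Tnfrsf9), NF-kB targets (such as Nfkbia, Relb, Tnfaip3), interferon response, cell cycle, Il2ra, Il7r and p53 targets. A gene was called when its pooled CPM differed at least 1.5-fold between high and low cells with 6 of 6 sets going the same way. Genes with at least 100 UMIs in a comparison, the lists' own markers left out, gave the background share of called genes.

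TCR response-high cells had more Bcl2a1 and Bcl2l1 than low cells. Of the 7 members, 3 were called, all higher, the third being Pmaip1 on few UMIs, against 6.05% of 8565 genes. Bcl2a1 stood at 958.6, 1073.3, 1026.9, 956.3, 757.2 and 1153.3 CPM in the high cells of sets 1 to 6 and at 207.6, 183.5, 159.0, 241.8, 220.8 and 255.1 CPM in the low cells. The lowest high value lay far above the highest low value. Pooled, this was 996 against 210 CPM, a 4.74-fold difference (log2 2.24 [2.16, 2.33]), from 682 high and 7727 low cells. Bcl2a1b and Bcl2a1d counted alone rose 4.52-fold and 5.33-fold.

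Bcl2l1, whose product Bcl-xL is a long-lived guardian, lies on chromosome 2 (152780668 to 152831728, minus strand). It stood at 43.6, 68.8, 28.4, 36.7, 38.7 and 48.3 CPM in TCR response-high cells and at 15.1, 17.8, 11.5, 20.04, 18.0 and 21.6 CPM in low cells. Every high value exceeded every low value, and the pooled log2 ratio was 1.36 [0.96, 1.73]. Pmaip1, encoding the Mcl-1-binding and A1-binding Noxa, was at 17.3 against 8.10 CPM (log2 1.10 [0.46, 1.69]), on 28 UMIs in the high cells, 1 to 8 a set. Set 2 went the other way (4.59 against 6.27 CPM) and counted as higher only through the 0.5 UMIs added to each set. Its call held under 8 of 16 alternative settings. Bcl2 was at 265 against 387 CPM, a log2 ratio of -0.55 with the same direction in 6 of 6 sets but short of 1.5-fold. It stayed uncalled under 11 of 16 alternative settings and was called lower under the rest. Mcl1 (log2 0.19) and Bax (0.16) differed little, and Bcl2l11 (0.29, 21 UMIs in high cells) went in both directions among the sets.

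NF-kB-high cells (1101, against 7613 low) shared this pattern for the guardians. Of 7 members 2 were called, Bcl2a1 and Bcl2l1, against 3.62% of 8656 genes. Bcl2a1 stood at 626.9, 773.0, 586.8, 790.5, 620.1 and 733.2 CPM in high cells and at 225.4, 188.8, 176.0, 249.6, 221.8 and 265.3 CPM in low cells, without overlap (log2 1.64 [1.56, 1.72]). Bcl2l1 stood at 49.95, 65.2, 22.0, 56.5, 30.005 and 43.0 CPM in high cells, against 10.47 to 22.7 CPM in low cells. Set 3 was the lowest in both groups, and its 22.0 CPM overlapped the low values of other sets. The pooled log2 ratio was 1.41 [1.08, 1.73]. Mcl1 was at 98.2 against 79.7 CPM (log2 0.30 [0.10, 0.50]), higher in 5 of 6 sets and not called.

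Summed levels of other cell types' markers were low on both sides of these gates. The summed myeloid list was at 33.4 CPM in TCR response-high and 29.0 CPM in low cells, with set ranges of 4.30 to 105 and 5.28 to 89.4 CPM. It was at 24.8 and 30.8 CPM in NF-kB-high and low cells. The B cell list was at 41.4 against 46.2 CPM for TCR response and 44.5 against 46.5 CPM for NF-kB. Of the 7 myeloid genes none was at 0 in the TCR response-high cells, and 1 of the 5 B cell genes was. The CD8 list (2 genes) was at 12.4 against 14.0 CPM for the TCR response and 17.2 against 13.7 CPM for NF-kB, and the erythroid list at 60.01 against 65.4 and 78.1 against 63.7 CPM. For effector cells the B cell list was at 52.3 against 44.7 and the myeloid list at 26.9 against 30.5 CPM, and for resting cells they were at 41.3 against 49.1 and 29.3 against 29.0 CPM. Their part in the results was not tested.

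**Figure D2:**
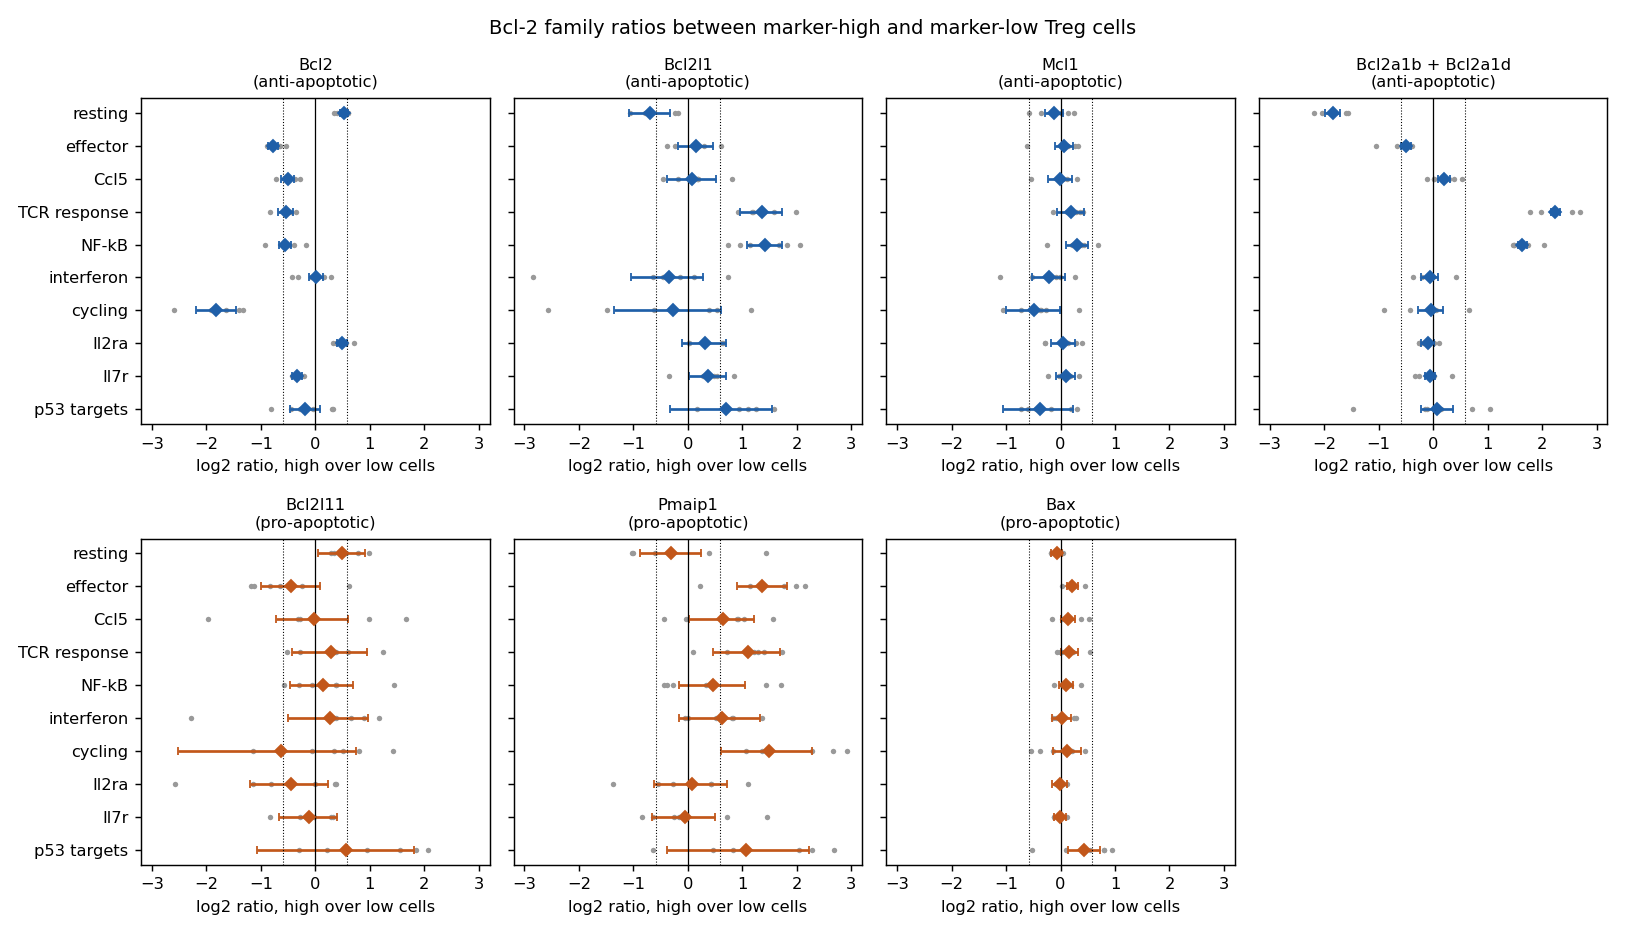
Log2 ratio of each member between cells high and low for each marker list (rows), pooled over sets (diamonds, 95% intervals for counting error) and in each of the 6 sets (grey points, 0.5 UMIs added); dotted lines mark 1.5-fold. Bcl2a1 reaches 2.24 for the TCR response and -1.84 for resting cells, while the pooled values of Mcl1 and Bax stay within the dotted lines in all 10.

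Resting-high cells had the opposite make-up. Bcl2a1 and Bcl2l1 were called lower (2 of 7 members, against 5.81% of 8620 genes). Bcl2a1 stood at 122.6, 96.05, 74.4, 118.8, 121.9 and 98.2 CPM in the 1931 resting-high cells and at 362.2, 337.3, 308.1, 427.8, 372.7 and 452.3 CPM in the 6608 low cells, a log2 ratio of -1.84 [-1.98, -1.71]. Every set of high cells lay below every set of low cells. Bcl2l1 was at 14.5 against 23.5 CPM (log2 -0.69 [-1.08, -0.32]), lower in 6 of 6 sets, and its call held under 11 of 16 alternatives.

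Bcl2, on chromosome 1 (106538178 to 106714274, minus strand), went the other way. It stood at 530.5, 506.0, 478.0, 428.7, 397.6 and 449.5 CPM in resting-high and at 349.5, 383.0, 375.4, 281.7, 266.8 and 313.4 CPM in low cells. Each high value exceeded each low value, and the log2 ratio of 0.52 [0.45, 0.59] stayed short of 1.5-fold. Bcl2 remained uncalled under 12 of 16 alternatives and was called higher under the rest. With Klf2 and S1pr1 taken out of the list, a choice made after seeing the data, its ratio was 0.66 and called. Bcl2l11 (chromosome 2, 128126038 to 128162547, plus strand), encoding Bim, was also higher in 6 of 6 sets, at 13.7 against 9.79 CPM (log2 0.48 [0.05, 0.91]; 66 UMIs in high cells), and was not called. Its ratio was 0.63 and called without the same 2 genes. Mcl1 (log2 -0.11) and Bax (-0.07) were nearly level.

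Effector-high cells had less Bcl2 and more Pmaip1. These were the 2 called members of 7, against 6.67% of 8427 genes. Bcl2 stood at 290.8, 249.5, 279.4, 219.3, 217.0 and 210.8 CPM in the 1929 effector-high cells and at 422.3, 463.0, 445.8, 369.6, 341.1 and 387.0 CPM in the 5806 low cells, with no overlap (log2 -0.77 [-0.86, -0.68]). Pmaip1 stood at 16.3, 15.2, 18.1, 18.6, 13.2 and 15.0 CPM in high cells and at 4.86, 3.82, 7.37, 4.04, 11.5 and 6.82 CPM in low cells. The groups did not overlap, with set 5 closest, and the log2 ratio was 1.37 [0.90, 1.83] on 77 and 86 UMIs. Its call held under 12 of 16 alternatives. Bax, on chromosome 7 (45461697 to 45466898, minus strand), was higher in 6 of 6 sets by only 1.16-fold (239 against 205 CPM). Bcl2a1 was lower in 6 of 6 sets (224 against 316 CPM, log2 -0.50), not called. Without Crip1, the most abundant gene of the list and a change made after seeing the data, its ratio was 0.14, while those of Bcl2 (-1.09) and Pmaip1 (1.61) grew.

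The resting and effector groups overlapped: 611 cells were high in both, 31.6% of resting-high cells against 18.9% of all cells. Cells high in a single state list were therefore compared. Bcl2 was at 539 CPM [513, 566] in the 1151 resting-only cells, 427 [381, 476] in 318 interferon-only cells, 398 [387, 409] in 5368 cells high in none, 283 [255, 313] in 600 Ccl5-only cells, 272 [243, 303] in 503 TCR response-only cells and 233 [214, 252] in 1024 effector-only cells. Resting-only cells were highest in all 6 sets but 1: in set 3 interferon-only cells reached 567 CPM against 495. The intervals of interferon-only cells and cells high in none overlapped, as did those of Ccl5-only and TCR response-only cells. TCR response-only cells were above effector-only cells by log2 0.22 [0.02, 0.42], in 4 of 6 sets, which was not called. The ratio of effector-only to resting-only cells was log2 -1.21 [-1.35, -1.07], lower in 6 of 6 sets, where 7.12% of 4986 genes were called; these and the crossed comparisons below were added after the data had been seen, and their background includes the lists' markers.

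Bcl2a1 had another order. It was at 1066 CPM [1007, 1126] in TCR response-only cells, then 313 [283, 344] in Ccl5-only, 285 [276, 295] in cells high in none, 271 [235, 311] in interferon-only, 229 [211, 249] in effector-only and 93.7 [83.0, 105] in resting-only cells. The first and the last stood apart in every set, at 805 to 1209 and at 73.5 to 108 CPM. Ccl5-only, interferon-only and cells high in none overlapped in their intervals, as did interferon-only and effector-only cells. TCR response-only over resting-only cells gave an 11.4-fold ratio (log2 3.51 [3.32, 3.70]), where 13.2% of 4136 genes were called. Effector-only cells exceeded resting-only cells by log2 1.29 [1.08, 1.504] in 6 of 6 sets. TCR response-only cells exceeded effector-only cells by 2.22 [2.07, 2.36], and Bcl2l1 was the other member called there (1.23), beside 9.43% of 4072 genes.

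Bcl2l1 was at 49.6 CPM [37.6, 64.1] in TCR response-only cells and between 14.5 and 22.9 CPM in the other 5 groups, whose intervals overlapped. Pmaip1 was lowest in resting-only cells (4.396 CPM [2.34, 7.52], 13 UMIs) and highest in TCR response-only (18.8 CPM [11.8, 28.5]) and effector-only cells (14.2 CPM [9.88, 19.7]). Its ratio to resting-only cells was called for both, log2 1.69 for effector-only and 2.10 for TCR response-only cells. Bcl2l11 lay between 7.70 CPM in effector-only and 17.3 CPM in interferon-only cells, with all 6 intervals overlapping. Its ratio of effector-only to resting-only cells was log2 -0.88 [-1.75, -0.07] on 19 and 42 UMIs, lower in 5 of 6 sets and not called. Mcl1 lay between 75.1 and 94.0 CPM and Bax between 177 and 251 CPM.

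**Figure D3:**
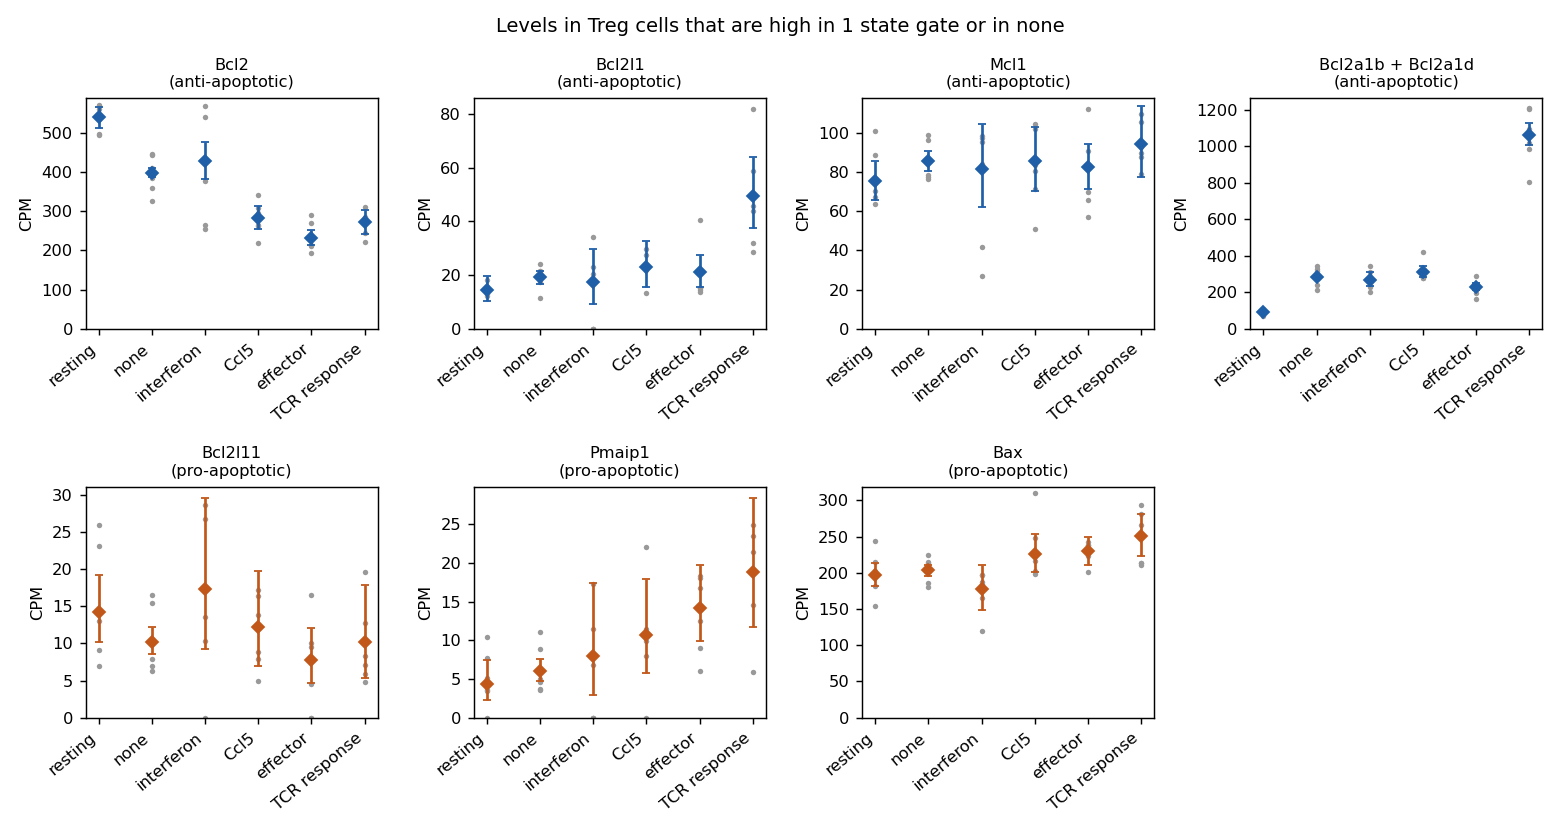
Level of each member (CPM, y axis from 0) in Treg cells high in a single state list or in none (x axis), pooled (diamonds, 95% intervals for counting error) and per set (grey points). Bcl2 falls from 539 CPM in resting-only to 233 CPM in effector-only cells, while Bcl2a1 reaches 1066 CPM in TCR response-only cells and Mcl1 stays between 75.1 and 94.0 CPM.

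The make-up of the family's transcripts therefore differed between states. Of the UMIs of the 7 members, Bcl2 took 57.5% [55.6, 59.3] in resting-only and 15.4% [13.9, 17.1] in TCR response-only cells. Bcl2a1 took 9.99% [8.90, 11.2] and 60.5% [58.4, 62.6]. In effector-only cells Bcl2, Bcl2a1 and Bax were close to equal, at 28.5%, 28.1% and 28.1%. The 4 guardians outnumbered Bax, Bcl2l11 and Pmaip1 in every state. By set, the ratio of their UMIs was 4.53 to 6.18 in TCR response-only, 2.5 to 4.8 in interferon-only and 2.62 to 3.98 in resting-only cells. It was 3.08 to 4.06 in cells high in none, 2.20 to 3.59 in Ccl5-only and 1.86 to 2.71 in effector-only cells. The effector Bak1 and other BH3-only genes such as Bad are not part of it. TCR response-only and effector-only cells did not overlap in this ratio, nor did TCR response-only and resting-only cells, whereas interferon-only cells overlapped with TCR response-only cells. Transcript shares say nothing of protein, which for Mcl-1 and Noxa is known to turn over fast.

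**Figure D4:**
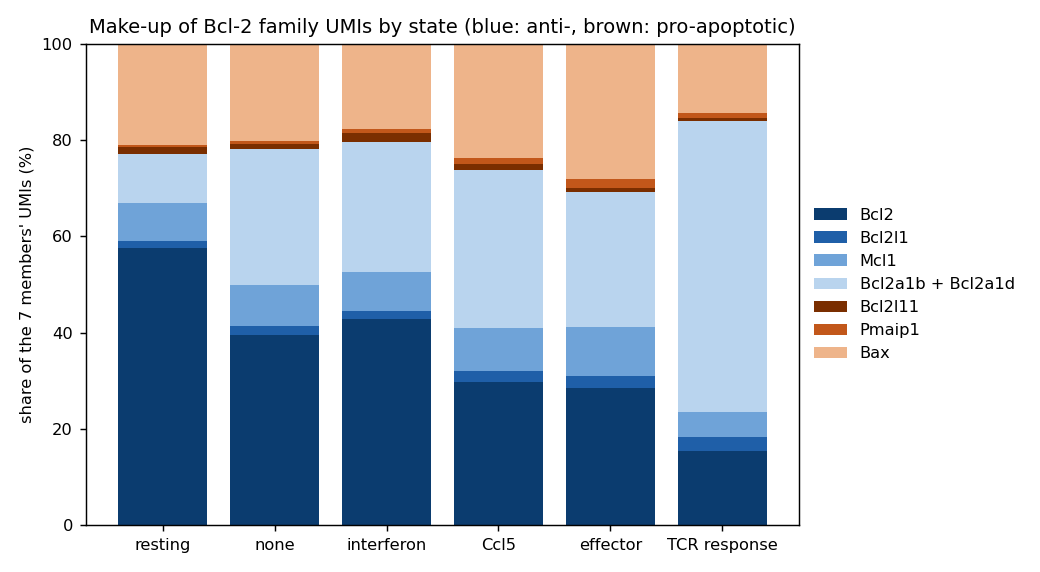
Share of the 7 members' UMIs (y axis, %) that each member takes in Treg cells high in a single state list or in none (x axis). Bcl2 takes 57.5% in resting-only cells, and Bcl2a1 60.5% in TCR response-only cells.

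The TCR response and NF-kB lists were then crossed. High in both were 223 cells, 32.7% of TCR response-high cells against 10.8% of all cells, so the lists are not independent. The TCR response list itself holds Nfkbid, a gene of the NF-kB inhibitor family, so the crossing does not separate TCR from NF-kB signals. Bcl2a1 was at 219 CPM in cells high in neither, 486 in cells high for NF-kB only, 778 for TCR response only and 1464 for both. The 6 sets ran from 175 to 256, from 371 to 548, from 531 to 966 and from 1158 to 2016 CPM, so that only the middle groups overlapped. Against neither, the log2 ratios were 1.15 (2.58% of 8830 genes called), 1.83 (4.88% of 8746) and 2.74 [2.63, 2.85] (7.95% of 8692). Bcl2l1 was at 17.4, 34.3, 27.2 and 79.7 CPM in these 4 groups. Its ratio was called for NF-kB only (log2 0.98 [0.59, 1.36]) and for both (2.20 [1.69, 2.67]), not for TCR response only (0.65 [0.06, 1.19], higher in 5 of 6 sets). Bcl2 was at 387, 279, 289 and 212 CPM, and was called lower for both lists together (log2 -0.87 [-1.15, -0.60]). Pmaip1 met the rule for TCR response only (1.16, 20 UMIs), and Bcl2l11 for both lists (0.73 [-0.42, 1.68], 9 UMIs). Without the 0.5 UMIs added each was higher in 5 of 6 sets: Pmaip1 was at 4.86 against 5.93 CPM in set 1, and Bcl2l11 at 11.1 against 14.4 CPM in set 6. Whether the effects of the lists differ between the 2 genes was not tested.

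Inside other states the groups were small. Among effector-high cells, the 56 that were also TCR response-high had Bcl2a1 at 767 CPM [635, 918] against 206 CPM [193, 219] in the rest, higher in 5 of 6 sets and so not called, where 3.79% of 4857 genes were. The exception, set 2, had no Bcl2a1 UMI in its cells. Bcl2l1 there was at 77.3 against 20.9 CPM, and Mcl1 at 180 [120, 261] against 85.1 CPM [76.9, 93.9], also in 5 of 6 sets. Among resting-high cells, the 40 that were TCR response-high had Bcl2a1 at 265 CPM [176, 383] against 102 CPM [92.9, 111], again in 5 of 6 sets (4.71% of 4565 genes called). The members that met the rule here were Bcl2l11 in both (4 and 5 UMIs) and Pmaip1 among resting-high cells (3 UMIs); at such counts the 0.5 UMIs added to a set decide its direction, and these calls are not read further.

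Cells were also grouped by their own Bcl2a1 UMIs after thinning. Bcl2 was at 392, 302, 254 and 189 CPM in cells with 0, 1, 2 to 3 and 4 or more Bcl2a1 UMIs (8134, 1522, 475 and 78 cells). Bcl2l1 was at 17.2, 27.1, 46.6 and 70.0 CPM [37.3, 120] in the same groups. For 4 or more against 0, Bcl2 was lower and Bcl2l1 higher in 6 of 6 sets (log2 -1.05 [-1.58, -0.58] and 2.02 [1.10, 2.82]), where 12.6% of 8521 genes were called. Set 3 had no Bcl2l1 UMI among its cells with 4 or more and went higher only through the 0.5 UMIs added. Bax was at 207, 225, 231 and 312 CPM. Mcl1 was at 82.2, 89.5, 89.9 and 59.2 CPM, the last on 11 UMIs.

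**Figure D5:**
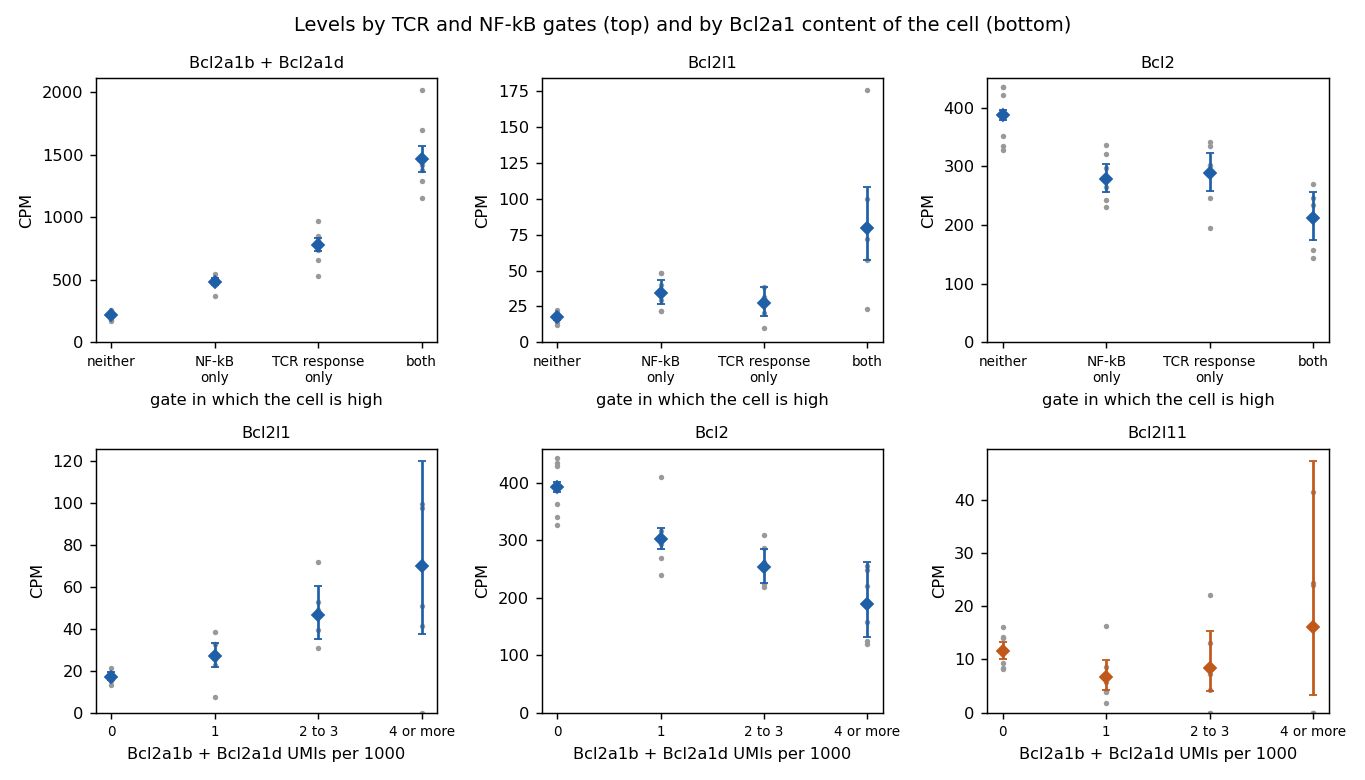
Levels (CPM, y axes from 0) by crossing of the TCR response and NF-kB lists (top: Bcl2a1, Bcl2l1, Bcl2) and by Bcl2a1 UMIs in the thinned cell (bottom: Bcl2l1, Bcl2, Bcl2l11), pooled (diamonds, 95% intervals for counting error) and per set (grey points). Bcl2a1 climbs from 219 CPM with neither list to 1464 CPM with both, and Bcl2 falls from 392 to 189 CPM as Bcl2a1 UMIs increase.

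The cytokine receptor genes gave small differences. In Il2ra-high cells (930 with a UMI of this interleukin 2 receptor chain) no member was called, against 1.33% of 8970 genes. Bcl2 stood at 492.1, 585.9, 532.1, 453.3, 414.4 and 526.5 CPM there, against 393.3, 403.2, 408.5, 307.7, 295.2 and 322.2 CPM in cells without a UMI. Each set was higher in Il2ra-high cells, 1.40-fold pooled (log2 0.48 [0.39, 0.57]). Bcl2l11, whose product is restrained by interleukin 2 signals, was at 8.12 against 11.01 CPM (log2 -0.44 [-1.20, 0.24], 19 UMIs), not distinguishable at this depth. In Il7r-high cells no member was called either (1.03% of 8970 genes), and Bcl2 was lower in 6 of 6 sets, at 302 against 382 CPM.

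Ccl5-high and interferon-high cells also had no called member, where 1.85% of 8970 and 2.29% of 8596 genes were called. Bcl2 was lower in Ccl5-high cells in 6 of 6 sets (267 against 380 CPM, log2 -0.51). In interferon-high cells all 7 log2 ratios lay between -0.35 and 0.62, and none had the same direction in 6 sets. p53 target-high cells were few (155). Bax, a classical p53 target, was at 282 against 208 CPM, higher in 5 of 6 sets and not called. Pmaip1, another, was at 17.8 against 8.47 CPM on 6 UMIs, with no UMI in 3 of the 6 sets, and was not called. Bcl2l1 met the rule there (32.7 against 20.2 CPM, 11 UMIs; 5.37% of 8675 genes), but its interval covered 1 (log2 0.69 [-0.32, 1.55]) set 6 went the other way before UMIs were added (19.3 against 25.5 CPM), and with UMIs added in proportion to totals, or without set 1, the call was lost.

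Cycling-high cells (85, with a median of 6207 UMIs against 2117 in low cells) had Bcl2 at 108 against 382 CPM, log2 -1.82 [-2.19, -1.46]. It was at 124.2, 56.5, 102.9, 121.2, 122.4 and 100.8 CPM in sets 1 to 6, below the low cells of every set. Pmaip1 was at 23.7 against 8.41 CPM on 14 UMIs (log2 1.497 [0.60, 2.28]). These were 2 of 7 members called, where 12.4% of 8844 genes were. Mcl1 was at 61.0 against 85.2 CPM (log2 -0.48, 36 UMIs in high cells), lower in 5 of 6 sets and not called. It was called lower with lists read at 500 UMIs and when set 5 was left out. Of the cycling-high cells, 57.6% were also effector-high. Without cells bearing other-lineage UMIs and the deepest 2% of cells, the ratios were log2 -0.48 for Bcl2 and 1.48 for Pmaip1, the latter on 2 UMIs, and none of the 8450 genes measured was called. That setting changed both choices at once, and the part of depth in the result was not tested. A set without high cells has no direction, and no gene can then meet the rule. The lack of calls in that setting is therefore not read as a loss of the difference.

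Of the other Bcl-2 family genes, 14 of 17 listed were in the table and 10 had at least 100 UMIs in Treg cells. The most abundant were Bnip3l (149 CPM), a mitophagy receptor, the effector Bak1 (44.4 CPM) and the BH3-only genes Bad (39.2 CPM), Bbc3 (24.7 CPM) and Bid (24.5 CPM). Bcl2l12 (23.9 CPM), Bcl2l13 (12.2 CPM), Bcl2a1c (7.33 CPM), Bnip3 (4.55 CPM) and Bcl2a1a (4.15 CPM) were lower. In TCR response-high cells 1 of the 8 measured was called, beside 6.05% of all genes, Bcl2a1c higher (30.3 against 5.04 CPM, log2 2.59), which was also higher in NF-kB-high (2.01) and lower in resting-high cells (-3.25). Bcl2a1a is 98.2% and Bcl2a1c 95.3% identical to Bcl2a1b over the aligned transcript. Within the last 300 bases, 294 of 298 aligned bases match for Bcl2a1a. The annotated Bcl2a1c transcript has only 444 bases, against 817 for Bcl2a1b, and 422 of 443 aligned bases match. Its last 300 bases need not be the same part, so the 49 of 56 aligned bases that match there do not measure 3′ divergence. The separate counts of Bcl2a1a and Bcl2a1c are therefore uncertain, and how reads were assigned to them was not tested. Bid was lower in resting-high cells (log2 -0.60), Bak1 higher in effector-high cells (61.0 against 37.9 CPM, log2 0.69), Bcl2a1a higher in Ccl5-high cells (1.02, 17 UMIs) and Bcl2l12 higher in cycling-high cells (50.8 against 23.4 CPM). These were 2 of 8 measured in resting-high cells (5.81% of all genes called), 1 of 8 in NF-kB-high (3.62%), 1 of 8 in effector-high (6.67%), 1 of 10 in Ccl5-high (1.85%) and 1 of 9 in cycling-high cells (12.4%). The list's median log2 ratio was 0.17 for the TCR response and 0.14 for NF-kB, beside 0.09 and 0.08 for all genes.

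Of 26 caspases and death regulators, 23 were measured for the TCR response, and 4 were called higher and none lower, beside 6.05% of all genes called either way, with a list median of 0.05 beside 0.09 for all genes. They were the TNF receptor Tnfrsf1b (150 against 71.6 CPM, log2 1.06), the caspase-8 inhibitor Cflar (132 against 67.0 CPM, 0.98), cytochrome c, Cycs (247 against 146 CPM, 0.75), and the death receptor Fas (85.4 against 51.9 CPM, 0.72). For NF-kB, 3 of 24 were called higher, beside 3.62% of all genes, the inhibitor-of-apoptosis genes Birc3 (log2 0.73) and Birc2 (0.66) and Tnfrsf1b (0.72), with a median of 0.23 beside 0.08. In resting-high cells 2 of 23 were called lower, beside 5.81%, Tnfrsf1b (-0.81) and the apoptosome gene Apaf1 (-0.77). In cycling-high cells Ripk3 (1.60), the mitochondrial channel gene Vdac1 (0.96) and Apaf1 (0.88, 9 UMIs) were called higher and Tnfrsf1b (-0.81) lower, 4 of 24 beside 12.4% of all genes. None was called for effector, Ccl5, interferon, Il2ra, Il7r or p53 target cells.

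The genes whose levels followed each member most closely were sought over 33 sums of a set and a single-list state (6 states), among 4779 genes; the sums share libraries and depth, and the correlations are descriptive. Bcl2a1 was most like Rilpl2 (Pearson r 0.96), the AP-1 factor gene Batf (0.96) and Tnfrsf4 (0.94), a costimulatory receptor. Bcl2l1 was most like Hnrnpll (0.81), Ddx21 (0.81) and Nab2 (0.79). Bcl2 was most like the ribosomal protein genes Rpl35a (0.87), Rps29 (0.83) and Rps18 (0.82). For Bax, Cox7c (0.73), Akna (0.73) and Med10 (0.67) led, and for Mcl1 (chromosome 3, 95658788 to 95663176, plus strand) no gene passed 0.57, the value of Mrps10. Bcl2l11 and Pmaip1 had too few UMIs for this comparison.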

How the data were processed

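The submitters' processing notes name mm10 as build and Cell Ranger, Seurat, HISAT2, cutadapt and FastQC as tools, with no versions or roles. The deposited count table holds raw UMI counts; a second table by the authors, in natural log units, was used only for its list of 10464 cells. None of the 10685 cell columns matched a sample's labels, so the planned genotype test was not run. Cells needed 200 genes and under 10% mitochondrial UMIs. Treg cells had fewer than 3 B cell, 3 myeloid, 2 CD8 and 3 NK marker UMIs and at most 5% erythroid UMIs. Of these, 10209 were thinned to 1000 UMIs (seed 1) for the marker lists and 305 were too shallow; levels use unthinned UMIs. Intervals are exact Poisson (CPM), conditional binomial (ratios) and Clopper-Pearson (shares). Ratios of a set have 0.5 UMIs added. Likeness used log2(CPM + 10) over sums of at least 100000 UMIs and genes with at least 500. A marker of the resting list is not reported here. The call rule was tried on simulated counts with counting error only, using the totals of the TCR response list. These counts hold no variation of expression between sets or cells, so they do not give the error rate of the rule in these data. Named genes were the members, the other family genes with at least 100 UMIs, called death regulators (at most 4 a list) and the 3 most like genes per member. Members and lists were chosen with earlier results of these data known. Python 3.11.15, numpy 2.4.6, scipy 1.17.1, pandas 2.3.3 and matplotlib 3.10.9 were used.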

Additional observations from a re-analysis of the deposited data

How the results depend on the processing

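No paired analysis was possible because no cell column could be tied to a sample or its replicate number; this concerns cKO against WT, while cell states were compared within each set. Each ratio was recomputed under up to 16 alternatives, 2 of them added after seeing the data. The calls of Bcl2a1 for the resting, TCR response and NF-kB lists held in all 16, from log2 -2.02 to -1.39, 1.91 to 2.63 and 1.28 to 1.95. The call of Bcl2 for effector cells held in 15 (weakest -0.48), of Bcl2l1 for the TCR response in 15 (0.77) and for NF-kB in 14 (0.76). All called ratios kept their direction, except that of Bcl2l1 for p53 targets, which was -0.18 with lists read at 500 UMIs. With lists read at 500 UMIs the number of called members was 0 for effector, 1 for Ccl5, 1 for NF-kB and 2 for p53 targets. A count can also stay the same while its members change. At 500 UMIs Pmaip1 lost its call for the TCR response and cycling, while Bcl2l11 was called for the TCR response and Mcl1 for cycling. Without thinning the number of called members was 1 for resting, 1 for effector, 1 for Il7r and 0 for p53 targets. With seed 2 it was 1 for resting and 0 for p53 targets. With at most 10% of cells high it was 4 for NF-kB and 1 for Il7r. Without other-lineage UMIs and the deepest cells it was 0 for cycling, where no gene was called. The rule can call no gene where a set has no high cells. In the authors' listed cells the number of called members was 1 for interferon. Measured on thinned UMIs it was 1 for resting, effector and NF-kB and 2 for p53 targets. In cells high in no other state list it was 0 for cycling, where a set had no cells. Leaving out each set gave 0 (without set 1) to 2 (without set 4 or 5) for p53 targets and changed no other list's count by over 1.5 times. With UMIs added in proportion to totals it was 0 for p53 targets, and Pmaip1 was no longer called for the TCR response. Without a list's most abundant genes it was 4 for resting and 1 for the TCR response. With totals free of ribosomal and mitochondrial genes, the highest set exceeded the lowest 1.49-fold for Bcl2 and 1.39-fold for Bcl2a1. The causes were not tested. Depth limits Bcl2l11, Pmaip1 and the cycling and p53 lists, whose high cells held under 20 UMIs of each of these genes.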

Other observations

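The 6 barcode sets could not be tied to samples, and the values below are given per set with no grouping by genotype. Bcl2 was at 401, 419, 418, 321, 307 and 344 CPM in sets 1 to 6, Bcl2l11 at 8.33, 7.64, 6.96, 13.0, 14.4 and 14.4 CPM, Bcl2a1 at 284, 251, 234, 337, 292 and 355 CPM and Bax at 209, 202, 194, 221, 221 and 225 CPM. No set lay outside the rest by Dixon's criterion in any of the 19 groups of 6 values examined. That criterion looks for a single value apart from the rest, so it does not show that the sets are alike.

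State shares also varied by set. Effector-high cells made up 15.5%, 17.1%, 14.1%, 24.0%, 22.8% and 20.3% of cells and resting-high cells 19.7%, 21.2%, 18.6%, 18.2%, 17.8% and 17.7%. Within cells high in no state list, Bcl2 was at 409, 443, 445, 360, 325 and 385 CPM and Bcl2l11 at 6.997, 7.91, 6.26, 10.6, 16.6 and 15.5 CPM. In resting-only cells Bcl2 was between 494.1 and 569.5 CPM and Bcl2l11 at 9.11, 14.1, 7.002, 23.1, 13.0 and 25.9 CPM, and in effector-only cells Bcl2 was between 193 and 289 CPM.

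The Bcl2a1d share of Bcl2a1b and Bcl2a1d UMIs was 29.9% [27.6, 32.2] in TCR response-high and 26.6% [25.2, 28.0] in low cells, and 23.2% [19.6, 27.1] in resting-high and 28.2% [27.1, 29.4] in low cells. Given the near-identity of the copies, how reads were assigned between them was not tested.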
